A study of Mus musculus with 35 samples.

Results

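The difference between the diet effect at 24 weeks and the diet effect at 12 weeks was examined in resident Kupffer cells (ResKCs), macrophages of the liver sorted as CLEC4F+TIM4+ cells. The 24 ResKC samples among the 35 bulk RNA-seq samples of the series were taken, by the rule that they belong to the 4 groups of Kupffer cells from the standard diet (SD) or the western diet (WD) at 12 or 24 weeks. They comprised 7 SD and 5 WD samples at 12 weeks, and 6 SD and 6 WD samples at 24 weeks. All came from C57Bl/6J mice, and per the study's methods these were males that started on the diets at 5 weeks of age. The WD is rich in fat and cholesterol with sugar added, and is used to induce metabolic-associated fatty liver disease (MAFLD), whereas the SD is the control. For the 5 samples titled and described as western diet at 12 weeks, a separate diet field gives the standard diet. The titles were followed. The study counts its replicates in animals, but the labels do not tie each sample to a mouse, and the p-values measure only the spread between these samples.

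Kupffer cells line the liver sinusoids, where they clear particles, dying cells and modified lipoproteins from the blood and take part in lipid and iron handling. In MAFLD the resident cells are partly lost and monocyte-derived cells enter their niche, so a sort on CLEC4F and TIM4 is needed to follow the cells that were there before. Macrophages make ATP through glycolysis and through the mitochondrial respiratory chain, whose complexes are built from subunits encoded in both the nucleus and the mitochondrial genome, and they carry inhibitory receptors such as LAIR1 that set the threshold of their activation.

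The ResKC samples held between 11749343 and 14848994 counts, so that a floor of 3 counts, which covers counting error only, stood at 0.202 to 0.255 CPM, the counts scaled to 1000000 per sample. Clec4f, which encodes the lectin used in the sort, lay between 11191 and 16760 CPM before scaling in all 24 ResKC samples, and Timd4, the other sort marker, lay between 550.3 and 1286 CPM. The neutrophil gene S100a8 was at most 2.53 CPM, the fibroblast gene Col1a1 at most 4.08 CPM and the monocyte gene Ly6c2 at most 0.741 CPM, with 6 samples at 0 for the last. These single genes do not show that such cells were absent. Summed over marker lists after scaling, levels were 71.3 to 124 CPM for neutrophils and 209 to 631 CPM for stellate cells and fibroblasts. For monocytes and CLEC4F-negative macrophages they were 286 to 1058 CPM. Albumin mRNA (Alb), a hepatocyte product, lay between 158 and 1124 CPM, and the endothelial receptor Stab2 between 260.4 and 462 CPM. In bulk samples fewer cells expressing a gene and less RNA per cell cannot be told apart. The alignment names in the file headers took 2 forms. All 5 WD samples at 12 weeks and all 6 SD samples at 24 weeks were of the first form, whereas the SD samples at 12 weeks held 3 of the first and 4 of the second form and the WD samples at 24 weeks held 3 of each. What the forms stand for is not given in the sources used here. ResKC samples of the second form thus occurred only in the groups that enter the interaction defined below with a plus sign. The forms are therefore partly confounded with the interaction, and any difference between them would be part of it.

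Genes over 1 CPM in at least 5 of the 35 samples were tested, and the interaction was taken as (WD minus SD at 24 weeks) minus (WD minus SD at 12 weeks) on the log2 scale. Of 13421 genes, 38 passed an adjusted p of 0.05 in edgeR's quasi-likelihood test (0.283% of the genes tested), 9 with a higher value (0.0671%) and 29 with a lower value (0.216%). Without adjustment, 819 genes (6.1%) were higher and 1067 (7.95%) lower at p under 0.05. The 29 lower genes included components of the respiratory chain and receptors and secreted proteins of macrophages, and the 9 higher genes included the enzyme that limits glutathione synthesis. In 33 of the 38 genes the diet effects at 12 and 24 weeks had opposite signs, beside 43.3% of all genes tested. Choosing genes by a large difference of these effects itself favours opposite signs. The lower genes had a median diet effect of 0.26 at 12 weeks and -0.40 at 24 weeks, and the higher genes -0.21 and 0.43. Viewed by diet, 34 of the 38 genes changed more between 12 and 24 weeks in WD than in SD samples, beside 59.7% of all genes tested. All 29 lower genes had a WD value below 0 in that change, whereas 28 of them had an SD value above 0. Of the 13421 genes tested, 6662 had a WD value and 6813 an SD value above 0. The interaction is also the WD change minus the SD change, so choosing genes by it itself favours these signs. In 6 of the lower genes every WD sample at 24 weeks lay below the other 18 ResKC samples, which held for 23 genes tested (0.171%), and none of the higher genes lay above them in every WD sample, which held for 34 genes tested (0.253%).

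**Figure D1:**
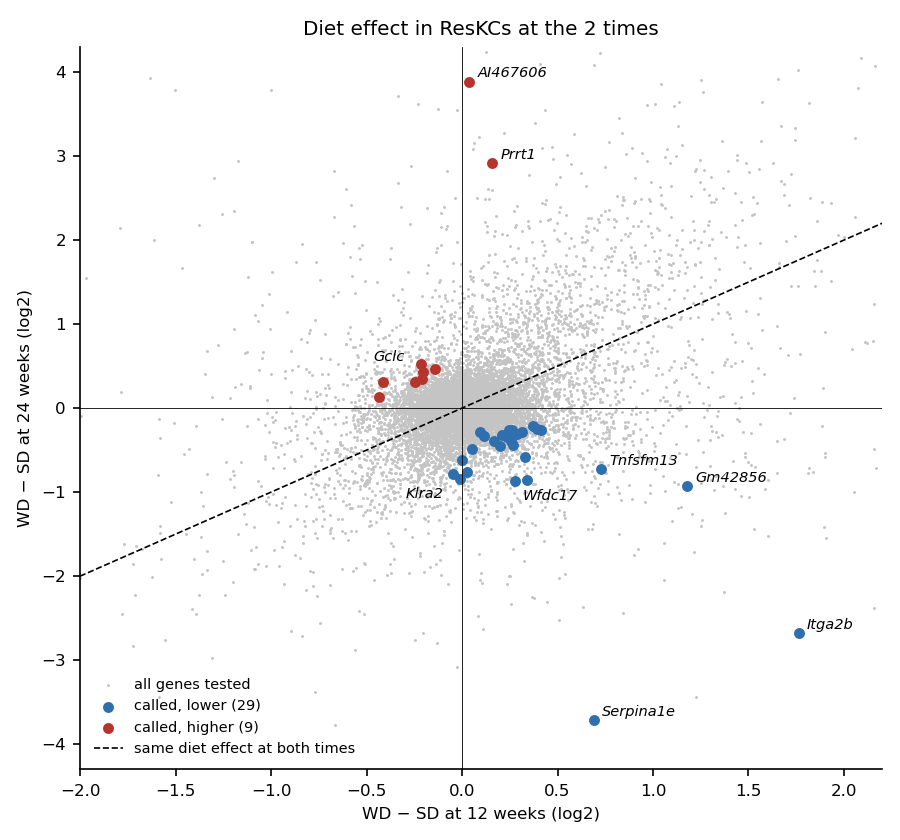
Diet effect (WD minus SD, log2) at 12 weeks on the x axis and at 24 weeks on the y axis, with grey points for all genes tested, blue for the 29 lower and red for the 9 higher genes. The dashed line marks equal effects, 94 genes lie outside the axes and none of them is called, and most coloured points lie in the quadrants where the sign of the diet effect changed.

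The count of called genes moved with single samples, between 8 and 98 when each ResKC sample was left out in turn. It was 8 without the SD sample 1 at 24 weeks, and 13, 15 and 98 without SD samples 4, 2 and 3 at that time. Without WD samples 1, 2, 3, 5 and 6 at 24 weeks it was 17, 13, 23, 79 and 10. Without SD samples 1, 2, 3 and 5 at 12 weeks it was 15, 63, 16 and 11, and without WD samples 1, 3 and 5 at 12 weeks it was 85, 14 and 10. The other 8 samples left it within 1.5 times 38. No called gene changed direction in any of these fits or in the 15 other settings, and 8 genes passed in all 24 fits: Lair1, Wfdc17, Lst1, Ndufa1, Gclc, Klra2, Gm42856 and Gmfg. Of these 8, Wfdc17, Lst1, Ndufa1 and Gmfg did not pass in edgeR with the replicate number as a block (adjusted p = 0.0801 each). Scaling by library size alone shifted the median interaction of all genes from -0.0043 to 0.06 and gave 33 genes, 21 higher and 12 lower, of which 21 were among the 38. A fit of the first naming form alone took 22 samples of the series, 17 of them ResKC samples. These 17 were 3 SD and 5 WD samples at 12 weeks and 6 SD and 3 WD samples at 24 weeks. In this fit no gene passed by edgeR (smallest adjusted p = 0.0739), and 1662 had an unadjusted p under 0.05. All 38 genes had the same sign as in all samples, with ratios between the values from 0.57 to 1.32 and a median of 1.02. The lowest ratio was that of AI467606. These 17 samples are among the 24 that called the genes.

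**Figure D2:**
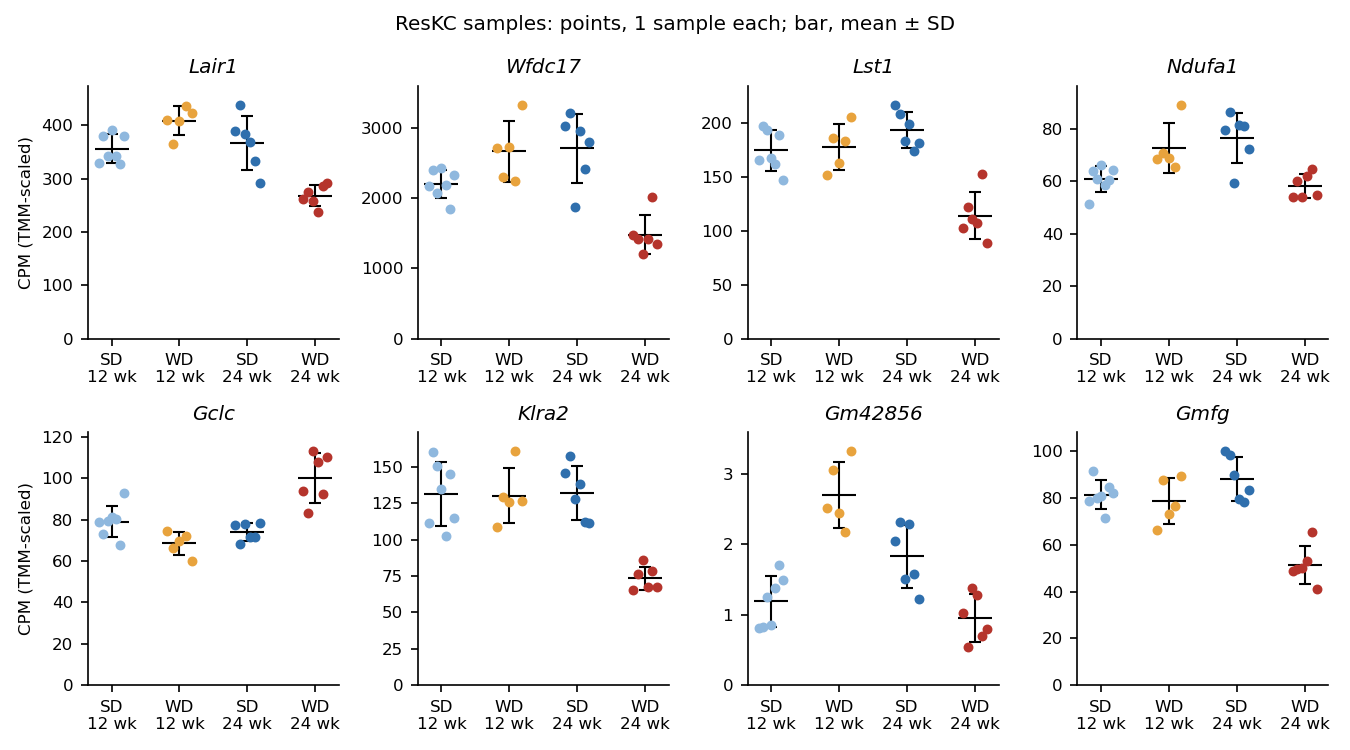
TMM-scaled CPM (y axis, from 0) of the 8 genes that passed in all 24 fits without 1 sample, with a point for each ResKC sample of the 4 groups on the x axis and the mean and SD as bars. WD samples at 24 weeks were lower than the other groups for Klra2 and Gmfg without overlap, and for Gclc they lay above the SD samples at 24 weeks and the WD samples at 12 weeks.

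Of the 29 lower genes, 9 encode subunits of the respiratory chain or ATP synthase, and 3 more encode other mitochondrial proteins. In complex I, which passes electrons from NADH to ubiquinone, the interaction was -0.65 (SE 0.12, adjusted p = 0.00934) for Ndufa1, -0.59 (SE 0.13, adjusted p = 0.032) for Ndufa3 and -0.70 (SE 0.15, adjusted p = 0.032) for Ndufb4. In complex IV, which reduces oxygen, it was -0.60 (SE 0.13, adjusted p = 0.032) for Cox7c, -0.55 (SE 0.12, adjusted p = 0.032) for Cox6b1 and -0.52 (SE 0.12, adjusted p = 0.0421) for Cox6c. In ATP synthase it was -0.64 (SE 0.14, adjusted p = 0.032) for Usmg5, -0.58 (SE 0.13, adjusted p = 0.0419) for Atp5j2 and -0.56 (SE 0.11, adjusted p = 0.017) for Atp5h. Ndufa1 ran from 51.1 to 66.2 CPM with a median of 60.8 in the SD samples at 12 weeks, stood at 65.2, 68.4, 68.9, 70.9 and 89.1 CPM in the WD samples at 12 weeks, and ran from 59.3 to 86.1 CPM with a median of 80.2 in the SD samples and from 53.98 to 64.7 CPM with a median of 57.3 in the WD samples at 24 weeks. Its WD samples at 12 weeks all lay above its WD samples at 24 weeks, which overlapped with the SD samples of both times. Atp5h ran from 92.98 to 114 CPM with a median of 108 in the SD samples at 12 weeks, stood at 98.3, 113, 119, 129 and 131 CPM in the WD samples at 12 weeks, and ran from 106 to 132 CPM with a median of 122 in the SD samples and from 82.5 to 104 CPM with a median of 90.02 in the WD samples at 24 weeks. The WD samples at 24 weeks lay below all SD samples at that time and overlapped with both groups at 12 weeks. Cox7c ran from 67.9 to 91.6 CPM with a median of 73.5 in the SD samples at 12 weeks, stood at 80.5, 91.5, 95.3, 106 and 109.9 CPM in the WD samples at 12 weeks, and ran from 73.5 to 109 CPM with a median of 89.9 in the SD samples and from 64.3 to 87.6 CPM with a median of 71.5 in the WD samples at 24 weeks. Here the groups overlapped at both times. The other 3 mitochondrial genes were Romo1, which encodes an inner membrane protein linked to reactive oxygen species, at -0.58 (SE 0.12, adjusted p = 0.032), Mrpl3, which encodes a protein of the mitochondrial ribosome, at -0.62 (SE 0.13, adjusted p = 0.032), and Mtfp1, which encodes an inner membrane protein needed for mitochondrial fission, at -1.20 (SE 0.27, adjusted p = 0.0341). Mrpl3 ran from 105 to 134 CPM with a median of 120.4 in the SD samples at 12 weeks, stood at 100.05, 104, 112, 131 and 138 CPM in the WD samples at 12 weeks, and ran from 108 to 139 CPM with a median of 125 in the SD samples and from 69.3 to 87.3 CPM with a median of 83.1 in the WD samples at 24 weeks. All 6 WD samples at 24 weeks lay below the other 18 samples, and the diet effect was -0.00061 on the log2 scale at 12 weeks (SE 0.10) and -0.62 at 24 weeks (SE 0.10). Mtfp1 also lay below the other samples in all WD samples at 24 weeks, from 1.81 to 3.08 CPM with a median of 2.67, whereas the SD samples at that time ran from 3.61 to 5.94 CPM with a median of 4.57. Without 1 sample, Atp5h passed in 22 of 24 fits, and the mitochondrial genes other than Ndufa1 and Atp5h passed in 10 to 13.

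The lower values extended over the respiratory chain beyond the called genes. The fixed list of 27 respiratory chain genes had been chosen with earlier results of these data known. In it 3 genes were called (Ndufa1, Cox7c and Cox6c, all lower), beside 0.216% of all genes tested. Its median was -0.19 and 21 genes had an interaction below 0, beside -0.0043 and 50.6% below 0 over all genes tested. A set of 84 nuclear genes was then taken by symbol after the values had been seen. The counts of the fixed list and of this set describe these samples and support nothing independently. In that set 9 genes were called lower, against 0.216% of all genes tested, 76 had an interaction below 0, 50 had an unadjusted p under 0.05 in this direction, against 7.95% of all genes, and the median was -0.32. DESeq2 called 20 of the set lower, beside 108 of all 13421 genes tested. By complex the median was -0.35 over 38 complex I genes (34 below 0), -0.08 over 4 complex II genes (2 below 0), -0.29 over 9 complex III genes (9 below 0), -0.30 over 14 complex IV genes (14 below 0) and -0.30 over 19 ATP synthase genes (17 below 0). Sdha, the catalytic subunit of complex II, had an interaction of 0.20 (SE 0.10, adjusted p = 0.344). The 9 mRNAs tested that are encoded in the mitochondrial genome lay between -0.93 for mt-Nd2 and -0.52 for mt-Atp6, with a median of -0.77, and none passed in edgeR (smallest adjusted p = 0.138) or DESeq2, whereas 6 had an unadjusted p under 0.05. Their summed level was 9362 CPM in WD sample 3 at 12 weeks against a median of 3475 CPM in that group, and without this sample the median interaction was -0.34. In the samples of the first naming form the median of the 84 genes was -0.43 and that of the mitochondrially encoded mRNAs -0.74. The summed level of the 84 genes ran from 7549 to 8788 CPM in SD and from 7974 to 9887 CPM in WD samples at 12 weeks, and from 8345 to 9241 CPM in SD and from 7623 to 8851 CPM in WD samples at 24 weeks, so the groups overlapped at both times.

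**Figure D3:**
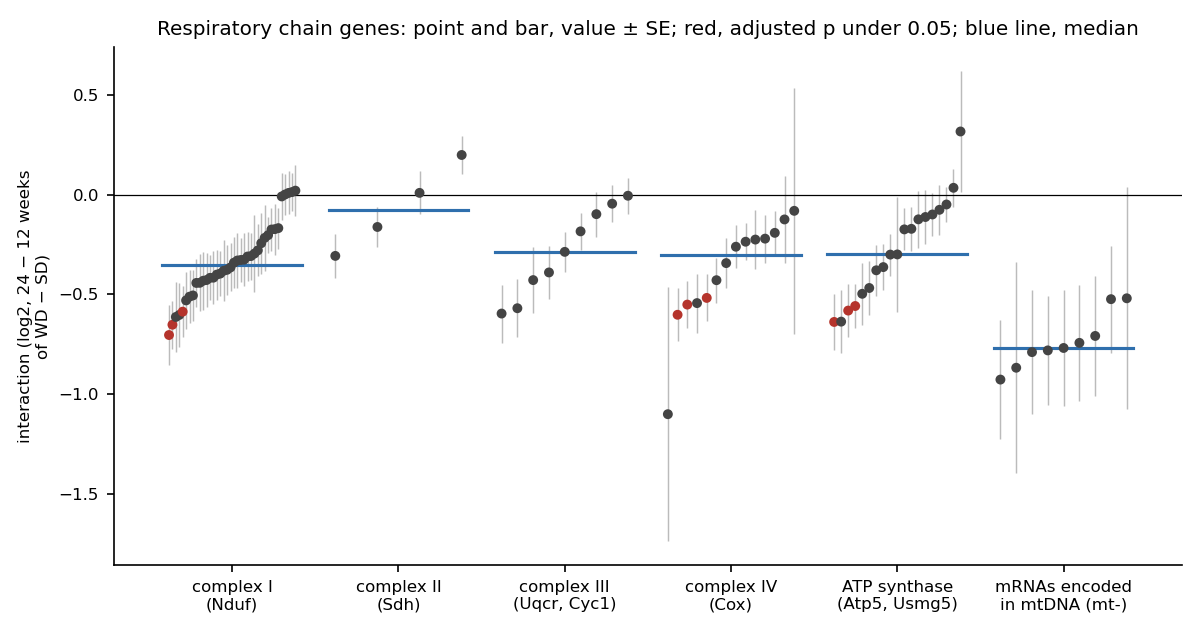
Interaction (log2, y axis) with its SE for 84 nuclear respiratory chain and ATP synthase genes by complex and for 9 mRNAs encoded in mitochondrial DNA (x axis), with red for the 9 called genes and a blue line for the median of each group. The medians lie between -0.77 and -0.08, and the complex II genes are centred nearest 0.

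Gene length moved with the interaction, and its part in the result was not tested. Length was counted over all annotated exons of a gene, which can exceed the length of its mRNA. Over genes with up to 1000 exon bases the median interaction was -0.28 (693 genes, 74.2% below 0), over those above that and up to 2000 bases it was -0.14 (1582 genes), and over the 4 classes of longer genes it lay between -0.03 and 0.04. The lower called genes had a median exon length of 1916 bases and the higher called genes 4952 bases, against 4206 over all genes tested. The respiratory chain set had a median length of 1578 bases. Within the shortest class its 21 genes had a median of -0.38 and all were below 0, and within the next class its 32 genes had a median of -0.37 and all were below 0. Above 2000 and up to 3000 bases its 13 genes had a median of -0.17 with 9 below 0, and from there to 5000 bases its 15 genes had a median of -0.17 with 11 below 0. After the length trend of each sample was removed, a setting chosen after seeing the data, 32 genes were called (8 higher, 24 lower), 28 of them among the 38, and the median of the 84 genes was -0.17. Of the mitochondrial genes, Atp5h, Cox6c, Usmg5, Atp5j2 and Mrpl3 still passed, and so did Ndufa1 and Cox6b1 with smaller values, at -0.38 and -0.32. Cox6c, Usmg5, Atp5j2 and Mrpl3 were counted with 3567, 2755, 3306 and 6661 exon bases. If their mRNAs are shorter, the removal did not correct them for it, so their passing does not show independence from mRNA length. Ndufa3, Cox7c and Romo1 did not pass, at -0.39, -0.42 and -0.36, nor did Ndufb4 and Mtfp1, whose values of -0.61 and -1.08 were nearer to those before removal. The 76 ribosomal protein genes taken by symbol, also short with a median of 1776 bases, had a median interaction of -0.29 with 67 below 0, and a median of -0.18 with the length trend removed. Of these genes only Rps13, a protein of the small ribosomal subunit, was called, at -0.53 (SE 0.12, adjusted p = 0.0387).

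**Figure D4:**
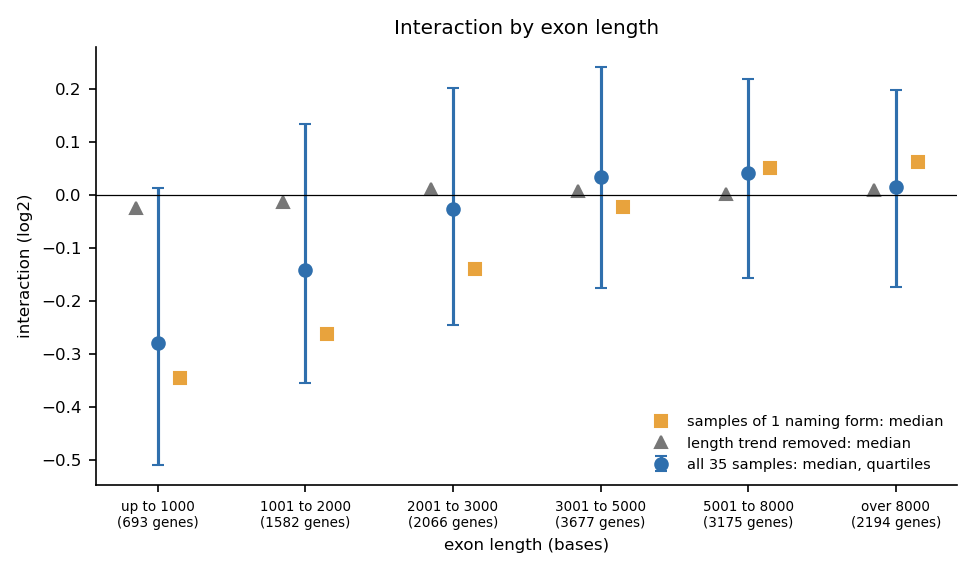
Median interaction (log2, y axis) by class of exon length in bases (x axis), with blue circles and quartile bars for all 35 samples, orange squares for samples of the first naming form alone and grey triangles after the length trend was removed. The blue medians climb from -0.28 in the shortest class to near 0 in genes over 2000 bases.

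The promoters of the lower mitochondrial genes were read from RefSeq (GRCm38.p6) because these genes moved together. Of the 38 genes, 32 had an entry, and the 250 bases before the start were searched on both strands for 7 motifs. The ETS letters CCGGAAGT were found for 5 of 25 lower genes (Atp5h, Cops9, Itgb1bp1, Mrpl3 and Romo1) and for 0 of 7 higher genes, and they stood in 2.88% of all 32851 promoters and in 5.66% of those of tested genes. Most lower mitochondrial genes with an entry lacked them: Ndufa1, Ndufa3, Ndufb4, Cox7c, Cox6b1, Usmg5, Atp5j2 and Mtfp1. Cox6c had no entry. The 3 promoters with the motif that belong to mitochondrial proteins are shown from 250 bases before the start up to it, with the ETS letters or their reverse complement in capitals. They lie at chr11:115419920-115420169 on the minus strand for Atp5h, chr2:156143983-156144232 on the plus strand for Romo1 and chr9:105053018-105053267 on the plus strand for Mrpl3.
Atp5h: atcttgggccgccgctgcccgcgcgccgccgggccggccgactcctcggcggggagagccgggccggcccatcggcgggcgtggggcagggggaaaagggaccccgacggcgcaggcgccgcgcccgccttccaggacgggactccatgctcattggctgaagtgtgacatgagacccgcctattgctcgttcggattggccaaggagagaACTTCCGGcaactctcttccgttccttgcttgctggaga
Romo1: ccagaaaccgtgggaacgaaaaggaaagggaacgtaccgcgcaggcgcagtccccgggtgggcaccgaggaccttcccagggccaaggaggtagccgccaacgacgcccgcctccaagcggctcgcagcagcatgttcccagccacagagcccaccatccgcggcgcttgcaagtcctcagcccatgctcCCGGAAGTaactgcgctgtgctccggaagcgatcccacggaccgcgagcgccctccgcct
Mrpl3: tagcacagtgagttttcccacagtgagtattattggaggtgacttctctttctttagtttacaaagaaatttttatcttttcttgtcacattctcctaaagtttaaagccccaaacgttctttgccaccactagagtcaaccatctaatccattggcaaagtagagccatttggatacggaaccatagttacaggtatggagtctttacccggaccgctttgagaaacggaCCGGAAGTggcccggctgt
The motif began 39, 60 and 19 bases before the start. The AP-1 letters TGANTCA stood before Cox7c and Med28 (6.75% of all promoters), the antioxidant response element TGACNNNGC before Brk1, March1 and Ndufa1 (10.2%), the E-box CACGTG before Golim4 (6.02%), the NRF1 motif before Cdk16 (0.782%), the PU.1 letters GAGGAAGT before Psma6 (2.44%), and the YY1 motif (0.207%) before none of the 32 genes. These are matches of letters and not sites of binding.

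Of the lower genes, 7 encode receptors, secreted proteins or other proteins of immune function. Lair1, the inhibitory receptor for collagens (chr7:4003402-4063204 on the minus strand, mm10), had the smallest p of all genes, with an interaction of -0.65 (SE 0.10, adjusted p = 0.00424). Lair1 ran from 327 to 390.4 CPM with a median of 343 in the SD samples at 12 weeks, stood at 365, 408, 410.3, 422 and 436 CPM in the WD samples at 12 weeks, and ran from 291 to 439 CPM with a median of 376 in the SD samples and from 237 to 292 CPM with a median of 268 in the WD samples at 24 weeks. The WD samples at 24 weeks lay below every sample at 12 weeks and overlapped with the SD samples at 24 weeks only through the lowest of these. The diet effect on Lair1 was 0.20 at 12 weeks (SE 0.07) and -0.45 at 24 weeks (SE 0.07). Klra2, a lectin-like receptor of the Ly49 family (chr6:131219223-131247362), had an interaction of -0.84 (SE 0.15, adjusted p = 0.00934). Klra2 ran from 102 to 160.5 CPM with a median of 135 in the SD samples at 12 weeks, stood at 109, 126, 127, 129 and 161 CPM in the WD samples at 12 weeks, and ran from 111 to 157 CPM with a median of 133 in the SD samples and from 65.1 to 85.8 CPM with a median of 72.005 in the WD samples at 24 weeks. All WD samples at 24 weeks lay below the other 18 samples, which overlapped among their groups, and the diet effect was -0.01 at 12 weeks and -0.85 at 24 weeks. Lst1, a leukocyte transcript of the class III region of the MHC (chr17:35185095-35188439), had an interaction of -0.79 (SE 0.14, adjusted p = 0.00934). Lst1 ran from 148 to 197 CPM with a median of 168 in the SD samples at 12 weeks, stood at 152, 163, 184, 187 and 206 CPM in the WD samples at 12 weeks, and ran from 175 to 217 CPM with a median of 192 in the SD samples and from 88.4 to 153 CPM with a median of 109 in the WD samples at 24 weeks. All WD samples at 24 weeks lay below the SD samples of that time, and the highest of them overlapped with the samples at 12 weeks. Lst1 has 415 exon bases, and after the length trend was removed its interaction was -0.52 (adjusted p = 0.0703).

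Wfdc17, a small secreted protein of activated macrophages (chr11:83703991-83706268), was among the more abundant called genes and had an interaction of -1.15 (SE 0.21, adjusted p = 0.00934). Wfdc17 ran from 1849 to 2425 CPM with a median of 2183 in the SD samples at 12 weeks, stood at 2249, 2300.5, 2717, 2730.3 and 3330.1 CPM in the WD samples at 12 weeks, and ran from 1869.9 to 3217 CPM with a median of 2873 in the SD samples and from 1199 to 2017 CPM with a median of 1419.5 in the WD samples at 24 weeks. All but the highest WD sample at 24 weeks lay below the other 3 groups. Cd40, the costimulatory receptor of the TNF receptor family, was the only called gene among the 14 tested MHC class II and antigen presentation genes, at -0.91 (SE 0.20, adjusted p = 0.0341). Cd40 ran from 50.4 to 68.8 CPM with a median of 54.6 in the SD samples at 12 weeks, stood at 55.4, 59.7, 68.9, 76.1 and 91.9 CPM in the WD samples at 12 weeks, and ran from 38.1 to 67.9 CPM with a median of 49.5 in the SD samples and from 27.7 to 41.4 CPM with a median of 32.3 in the WD samples at 24 weeks. All WD samples were lower at 24 than at 12 weeks, and they overlapped with the SD samples at both times. That list had a median of -0.39 with 12 of 14 genes below 0, and Ctss, a protease that trims the invariant chain, and H2-Ab1, a class II chain, stood at -0.25 and -0.83 without passing. March1, the ubiquitin ligase that removes MHC class II and CD86 from the surface, was lower at -0.51 (SE 0.11, adjusted p = 0.032), and its exons share 7.64% of their bases with an antisense transcript. Tnfsfm13, a read-through transcript of Tnfsf12 and Tnfsf13, was lower at -1.46 (SE 0.31, adjusted p = 0.032), but it had at most 53 counts in any ResKC sample and shares 32.7% of its exon bases with Tnfsf12 and 44.0% with Tnfsf13, so its reads cannot be assigned with certainty. Without 1 sample, Cd40, March1 and Tnfsfm13 passed in 12, 15 and 15 of 24 fits.

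A further 7 lower genes, Rps13 among them, act in adhesion and the cytoskeleton, in protein synthesis and turnover or in transcription. Gmfg, which debranches actin filaments made by the Arp2/3 complex, had an interaction of -0.73 (SE 0.14, adjusted p = 0.00934) and lies at chr7:28437447-28448233. Gmfg ran from 71.7 to 91.8 CPM with a median of 80.7 in the SD samples at 12 weeks, stood at 66.2, 73.03, 76.8, 87.8 and 89.6 CPM in the WD samples at 12 weeks, and ran from 78.3 to 100.1 CPM with a median of 86.7 in the SD samples and from 41.004 to 65.3 CPM with a median of 49.97 in the WD samples at 24 weeks. All WD samples at 24 weeks lay below the other 18 samples, the highest of them by less than 1 CPM. Brk1, a subunit of the WAVE complex that activates Arp2/3, was lower at -0.38 (SE 0.08, adjusted p = 0.032), and with 1095 exon bases it did not pass after the length trend was removed (adjusted p = 0.201). Psma6, an alpha subunit of the proteasome core, was lower at -0.54 (SE 0.11, adjusted p = 0.0195). Psma6 ran from 258 to 324 CPM with a median of 266 in the SD samples at 12 weeks, stood at 245, 291, 293, 298 and 324 CPM in the WD samples at 12 weeks, and ran from 265 to 352 CPM with a median of 299 in the SD samples and from 203 to 229 CPM with a median of 221 in the WD samples at 24 weeks. No WD sample at 24 weeks reached the range of the other 18, but Psma6 did not pass after the length trend was removed (adjusted p = 0.0646). Over the 40 proteasome genes taken by symbol, 33 had an interaction below 0, beside 50.6% of all genes, with 1 call, beside 0.216%, and a median of -0.17, which was -0.13 with the length trend removed. Cops9, a subunit of the COP9 signalosome, was lower at -0.68 (SE 0.15, adjusted p = 0.032), Med28, a subunit of Mediator, at -0.45 (SE 0.09, adjusted p = 0.032), and Itgb1bp1, which binds the tail of integrin beta 1, at -0.60 (SE 0.14, adjusted p = 0.0428). The exons of Itgb1bp1 overlap with those of Asap2 and Cpsf3 on the other strand by 11.4% and 5.54%. These 3 genes and Rps13 passed in 7 to 15 of the 24 fits without 1 sample.

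Serpina1e, Itga2b and Gm42856 had the lowest interactions of the 38 called genes, and they had few reads or are genes of other cells. Serpina1e, a mouse alpha-1 antitrypsin gene made in hepatocytes, had an interaction of -4.41 (SE 0.96, adjusted p = 0.032). Serpina1e ran from 17.1 to 74.01 CPM with a median of 41.8 in the SD samples at 12 weeks, stood at 13.7, 38.2, 62.2, 63.3 and 150.3 CPM in the WD samples at 12 weeks, and ran from 15.4 to 74.8 CPM with a median of 41.4 in the SD samples and from 0.158 to 10.96 CPM with a median of 2.01 in the WD samples at 24 weeks. All WD samples at 24 weeks lay below the other 18 samples. The 4 related genes Serpina1a, Serpina1b, Serpina1c and Serpina1d had interactions between -0.70 and 0.24 and none passed, and Serpina1b ran from 44.8 to 119 CPM in these WD samples against 13.97 to 52.2 CPM in the SD samples at 24 weeks. Because these genes are near-identical copies, the division of reads among them is uncertain. The summed level of the 20 hepatocyte markers ran from 597 to 5190.1 CPM in SD and from 1439.8 to 4808 CPM in WD samples at 12 weeks, and from 632 to 1973 CPM in SD and from 1585 to 5177 CPM in WD samples at 24 weeks. Of the 20 markers 17 had an interaction above 0 and none passed in edgeR or DESeq2. Their median was 0.53, -0.86 in the first naming form alone and between -0.17 and 0.86 without 1 sample, with the lowest value without SD sample 7 at 12 weeks and the highest without WD sample 3 at 12 weeks. The part of hepatocyte RNA in the Serpina1e result was not tested. Itga2b, the platelet integrin alpha IIb, had an interaction of -4.45 (SE 1.00, adjusted p = 0.0387) from at most 27 counts per ResKC sample, and 5 of the 24 samples had 0 counts. Itga2b ran from 0 to 0.665 CPM with a median of 0.153 in the SD samples at 12 weeks, stood at 0.641, 0.848, 0.891, 0.973 and 1.02 CPM in the WD samples at 12 weeks, and ran from 0.158 to 1.895 CPM with a median of 0.806 in the SD samples and from 0 to 0.376 CPM with a median of 0.0394 in the WD samples at 24 weeks. The WD samples at 12 weeks all lay above the WD samples at 24 weeks, and both overlapped with the SD groups. All 7 tested platelet and erythroid markers had an interaction below 0, from -4.45 for Itga2b to -1.11 for Alas2, with a median of -2.30, and only Itga2b passed. Their summed level ran from 3.91 to 93.3 CPM in SD and from 23.8 to 205 CPM in WD samples at 12 weeks, and from 36.0 to 116 CPM in SD and from 15.2 to 109 CPM in WD samples at 24 weeks. Gm42856, an uncharacterised transcribed region at chr6:24657518-24660369, had an interaction of -2.11 (SE 0.39, adjusted p = 0.00934) and between 7 and 43 counts. Gm42856 ran from 0.813 to 1.71 CPM with a median of 1.25 in the SD samples at 12 weeks, stood at 2.17, 2.43, 2.51, 3.05 and 3.32 CPM in the WD samples at 12 weeks, and ran from 1.23 to 2.32 CPM with a median of 1.81 in the SD samples and from 0.537 to 1.38 CPM with a median of 0.902 in the WD samples at 24 weeks. The WD samples at 12 weeks lay above all SD samples of that time, whereas the WD samples at 24 weeks overlapped with the SD samples at both times. Serpina1e and Itga2b each passed in 12 of 24 fits without 1 sample.

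Among the 9 higher genes, Gclc, the catalytic subunit of glutamate-cysteine ligase that limits glutathione synthesis (chr9:77754535-77794485), had the smallest p, with an interaction of 0.64 (SE 0.12, adjusted p = 0.00934). Gclc ran from 67.6 to 92.7 CPM with a median of 79.6 in the SD samples at 12 weeks, stood at 60.2, 66.1, 69.9, 72.2 and 74.5 CPM in the WD samples at 12 weeks, and ran from 68.2 to 78.6 CPM with a median of 74.5 in the SD samples and from 83.2 to 113 CPM with a median of 101 in the WD samples at 24 weeks. All WD samples at 24 weeks lay above the SD samples of that time and above the WD samples at 12 weeks, and they overlapped with the SD samples at 12 weeks. Gclc was the only call among 17 antioxidant genes controlled by NRF2, whose median was 0.06, and Sod1 and Gpx1, which detoxify superoxide and hydrogen peroxide, stood at -0.31 and -0.34 without passing. Slc25a22, a glutamate carrier of the inner mitochondrial membrane, was higher at 0.74 (SE 0.15, adjusted p = 0.0236). Slc25a22 ran from 38.9 to 53.8 CPM with a median of 41.9 in the SD samples at 12 weeks, stood at 31.7, 32.4, 36.9, 37.1 and 50.2 CPM in the WD samples at 12 weeks, and ran from 33.6 to 43.5 CPM with a median of 40.02 in the SD samples and from 51.7 to 62.5 CPM with a median of 56.8 in the WD samples at 24 weeks. The lowest WD sample at 24 weeks, at 51.7 CPM, lay above every WD sample at 12 weeks and every SD sample at 24 weeks, and of the 7 SD samples at 12 weeks only the highest exceeded it. Safb, a chromatin and RNA binding scaffold protein, was higher at 0.72 (SE 0.15, adjusted p = 0.032), Cdk16, a cyclin-dependent kinase, at 0.60 (SE 0.13, adjusted p = 0.032), Arid4a, a chromatin protein that binds RB, at 0.57 (SE 0.12, adjusted p = 0.032), Golim4, a Golgi membrane protein, at 0.56 (SE 0.12, adjusted p = 0.032), and Ppp1r13b, a partner of p53, at 0.55 (SE 0.13, adjusted p = 0.0492). These 5 genes passed in 7 to 17 of the 24 fits without 1 sample. Their diet effects lay between -0.44 and -0.14 at 12 weeks and between 0.13 and 0.46 at 24 weeks. Prrt1, known as a partner of glutamate receptors in neurons, and AI467606, a gene of unclear function, had the highest fitted values at 2.76 (SE 0.61, adjusted p = 0.032) and 3.85 (SE 0.88, adjusted p = 0.0421). At 24 weeks Prrt1 had 1 to 4 counts in the SD samples and 7 to 27 counts in the WD samples. AI467606 ran from 0.677 to 1.49 CPM with a median of 0.9203 in the SD samples at 12 weeks, stood at 0.649, 0.882, 0.966, 1.003 and 1.57 CPM in the WD samples at 12 weeks, and ran from 0 to 0.724 CPM with a median of 0.233 in the SD samples and from 0.998 to 13.02 CPM with a median of 2.33 in the WD samples at 24 weeks. The SD samples at 24 weeks held 0 to 10 counts of AI467606, and all WD samples at 24 weeks lay above them. Since Prrt1 and AI467606 had counts at or near the floor, as had Itga2b, their fitted values depend on the prior count, and that of AI467606 was 0.57 times as large in the first naming form alone. Prrt1 and Itga2b were over 1 CPM in fewer than 5 ResKC samples, so they passed the filter only with samples outside the ResKC groups. Without 1 sample, Slc25a22 passed in 22, Prrt1 in 11 and AI467606 in 8 of 24 fits.

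Of 20 genes of the lipid-associated macrophage (LAM) programme none passed by edgeR's test, whereas DESeq2 called Gpnmb and Fabp5 (adjusted p = 0.0167 and 0.0434). Of all 13421 genes tested, DESeq2 called 84 higher. Over the 20 genes the median interaction was 0.72 with 15 above 0, and the smallest p belonged to Gpnmb at 4.00 (SE 1.04, adjusted p = 0.0743), Vsig8 at 4.10 (SE 1.15, adjusted p = 0.0956) and Mmp12 at 2.93 (SE 0.89, adjusted p = 0.12). Gpnmb ran from 0.356 to 36.5 CPM with a median of 2.41 in the SD samples at 12 weeks, stood at 17.4, 43.4, 48.4, 58.03 and 76.2 CPM in the WD samples at 12 weeks, and ran from 0.491 to 3.75 CPM with a median of 2.1002 in the SD samples and from 66.7 to 495 CPM with a median of 117 in the WD samples at 24 weeks. The WD samples lay higher at 24 than at 12 weeks apart from an overlap between 66.7 and 76.2 CPM. Vsig8 had 0 counts in 5 of the 6 SD samples at 24 weeks, so its fitted value is no measure of a fold. The median of this list was 0.48 without WD sample 6 at 24 weeks, and within the first naming form it was 0.15. Fatty acid synthesis genes had a median of 0.87 (14 of 15 above 0), with Elovl6, Fasn and Me1 at 1.73, 0.87 and 1.498, and 0.16 in the first naming form alone and 0.39 without SD sample 7 at 12 weeks. Matrix genes had a median of 0.68 (17 of 21 above 0), with the proteases Mmp13, which DESeq2 called (adjusted p = 0.0352), at 2.82 and Mmp19 at 1.00, and 0.20 in the first form alone. Cell cycle genes had a median of 0.63 with 27 of 28 above 0, 0.98 in the first form alone and 0.39 without SD sample 2 at 12 weeks, and the smallest p belonged to the mitotic genes Cenpe at 1.33, Tpx2 at 0.95 and Kif20a at 1.14. No fatty acid synthesis, matrix or cell cycle gene passed in edgeR (smallest adjusted p = 0.14, 0.101 and 0.189). Of these genes DESeq2 called only Mmp13. Immediate-early genes, which respond within minutes to cell handling, had a median of -0.67 with 19 of 21 below 0, Fos stood at -1.48, Klf2 at -0.83 and Egr3 at 1.95, and none passed in edgeR or DESeq2. Without WD sample 5 at 24 weeks their median was -1.03.

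**Figure D5:**
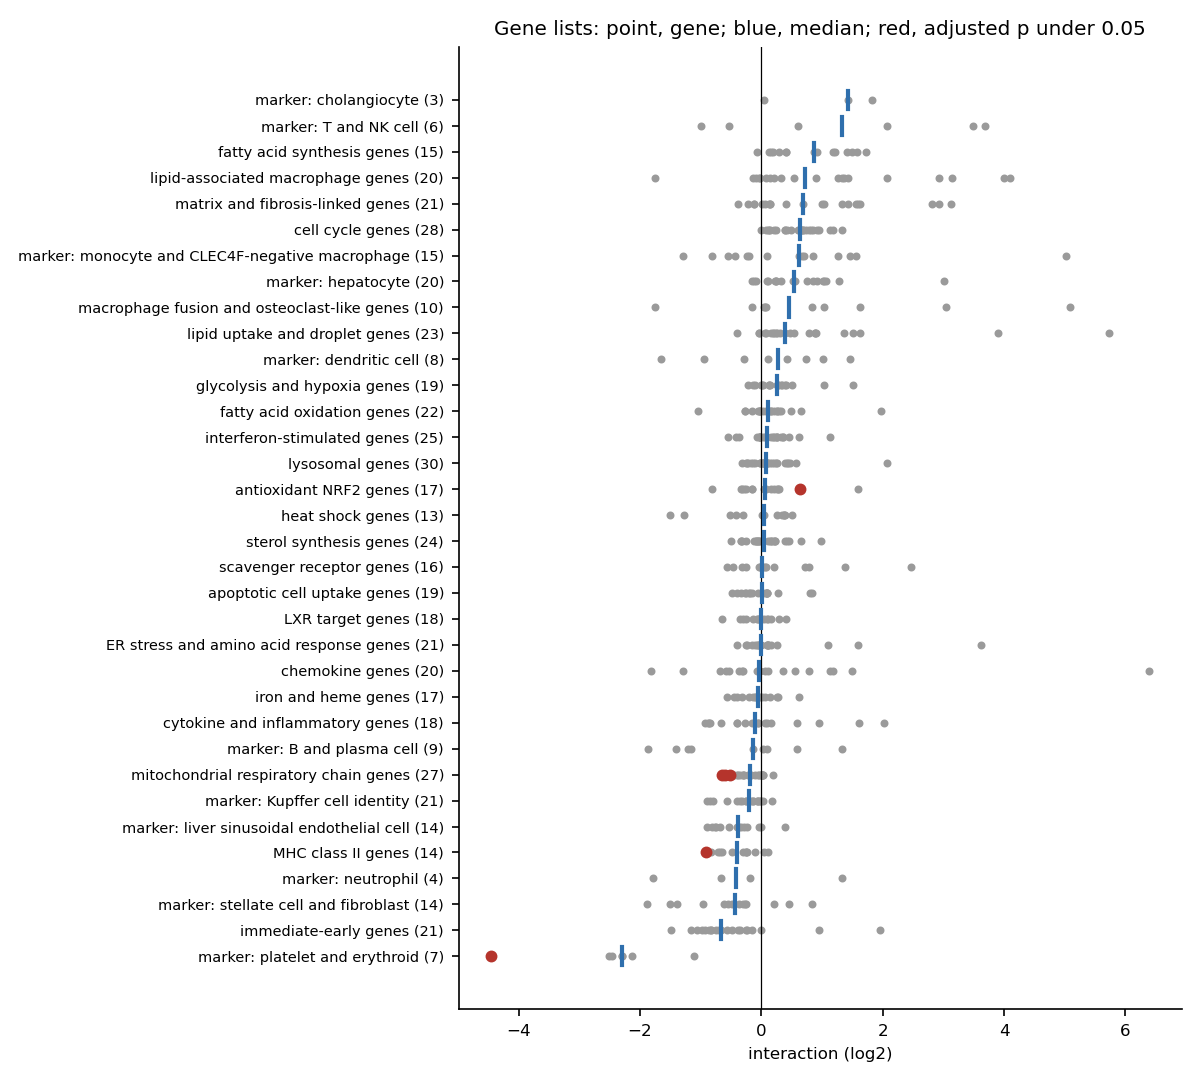
Interaction (log2, x axis) of every tested member of the fixed gene lists and cell type marker lists (y axis, number tested in brackets), with a blue bar for the list's median and red points for called genes. Called points occur in 4 lists, and the list medians run from -2.30 for platelet and erythroid markers to 1.43 for cholangiocyte markers.

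Of cytokine, lipid and LAM genes taken from the study's text, none passed by edgeR's test, and DESeq2 called Cd36 (adjusted p = 0.0499). Among the cytokines, Tnf stood at 0.16 (SE 0.85, adjusted p = 0.964), Il1b at -0.84 (SE 0.73, adjusted p = 0.662) and Il10 at -0.88 (SE 0.55, adjusted p = 0.495). Abca1, the cholesterol exporter, stood at -0.0043 (SE 0.30, adjusted p = 0.997), and Plin2, which coats lipid droplets, at 0.32 (SE 0.17, adjusted p = 0.424). Cd36, a fatty acid and lipoprotein receptor, stood at 0.79 (SE 0.25, adjusted p = 0.132). Cd36 ran from 268 to 477 CPM with a median of 356 in the SD samples at 12 weeks, stood at 377, 401, 464, 529 and 561 CPM in the WD samples at 12 weeks, and ran from 156 to 402 CPM with a median of 284 in the SD samples and from 519 to 885 CPM with a median of 649 in the WD samples at 24 weeks. The WD samples at 24 weeks lay above all SD samples and overlapped with the WD samples at 12 weeks. Cd9 and Trem2, markers of LAMs, stood at 1.32 (SE 0.44, adjusted p = 0.159) and 0.54 (SE 0.47, adjusted p = 0.664). Il1rn, the antagonist of the IL-1 receptor, had the smallest p of 18 cytokine and inflammatory genes, at 0.95 (SE 0.24, adjusted p = 0.0694), and Nos2 stood at 2.02. Il1rn ran from 61.05 to 109.9 CPM with a median of 82.8 in the SD samples at 12 weeks, stood at 115, 134, 145, 168 and 186 CPM in the WD samples at 12 weeks, and ran from 48.9 to 83.2 CPM with a median of 71.9 in the SD samples and from 185 to 357 CPM with a median of 248 in the WD samples at 24 weeks. All WD samples lay above the SD samples of their time, and the ranges at 12 and 24 weeks met at 186 and 185 CPM. Without SD sample 3 or WD sample 5 at 24 weeks Il1rn passed in edgeR (adjusted p = 0.047 and 0.0434), and with all samples it passed in DESeq2 (adjusted p = 0.015). The sort markers Clec4f and Timd4 stood at -0.21 (SE 0.47, adjusted p = 0.892) and -0.41 (SE 0.43, adjusted p = 0.732), and 18 of 21 Kupffer cell identity genes were below 0 with a median of -0.20 and no call.

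The other lists of gene functions held no call by edgeR's test, with medians between -0.10 and 0.45. DESeq2 called Cd36 and Fabp5 of the lipid uptake genes, Cd300lb of the genes for uptake of apoptotic cells (adjusted p = 0.0405), Ifi44 of the interferon-stimulated genes (adjusted p = 0.043) and Pkm of the glycolysis genes (adjusted p = 0.0385), all higher, and Pkm also passed in edgeR scaled by library size alone (adjusted p = 0.0462). Lipid uptake and droplet genes stood at 0.40 (20 of 23 above 0), with the fatty acid binding protein Fabp5 at 1.36 and the droplet protein Cidea at 5.72, and fusion and osteoclast-like genes at 0.45 (8 of 10), with Atp6v0d2 at 3.05, Dcstamp at 5.08 and Mmp9 at 1.63. Glycolysis and hypoxia genes stood at 0.26 (15 of 19), with the glycolytic enzymes Pkm, Pfkl and Eno1 at 0.35, 0.41 and 0.28. Fatty acid oxidation genes stood at 0.11 (14 of 22), with Acadl, Hadh and Hadha at 0.25, 0.48 and 0.26, and lysosomal genes at 0.08 (21 of 30), with Cd63, Psap and Lamp2 at 2.08, 0.45 and -0.23. Interferon-stimulated genes stood at 0.10 (16 of 25), with Ifi44, Ifi27 and Oasl2 at 1.14, -0.56 and 0.36. Targets of the oxysterol receptor LXR stood at -0.0039 (7 of 18), with Smpdl3a, Mylip and Nr1h3 at -0.30, -0.35 and -0.25, and sterol synthesis genes at 0.04 (12 of 24), with Lss and Sqle at 0.66 and -0.50. Scavenger receptors stood at 0.02 (9 of 16), with Cxcl16 and Cd68 at -0.32 and 0.22, and genes for the uptake of apoptotic cells at 0.01 (10 of 19), with Cd300lb, Cd300a and C1qa at 0.80, -0.26 and -0.33. Cytokine and inflammatory genes stood at -0.10 (7 of 18) and chemokines at -0.03 (9 of 20), with Cxcl3, Ccl9 and Cxcl13 at 6.39, 1.13 and -1.81. Heat shock genes stood at 0.04 (8 of 13), with Hspa1a, Hspa1b and Hspe1 at -1.498, -1.28 and -0.30, ER stress genes at -0.004 (10 of 21), with Psat1, Asns and Creld2 at 1.10, 3.61 and 0.26, and iron and heme genes at -0.06 (6 of 17), with Blvrb, Slc11a2 and Fth1 at -0.40, -0.45 and -0.32. Dcstamp, Cidea and Cxcl3 had 0 counts in all 6 SD samples at 24 weeks, and Asns at most 4 counts, so that their fitted values are no measure of a fold.

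Levels of the genes in the other sorted populations, monocyte-derived Kupffer cells (moKCs, CLEC4F+TIM4-, 5 samples) and CLEC4F- macs (6 samples) from the WD at 24 weeks, were set beside those of the ResKCs from the WD at 24 weeks with no test. Lair1 stood at 268 ± 20.2 CPM in these ResKCs, while moKCs had 319 ± 11.2 CPM and CLEC4F- macs had 321 ± 18.5 CPM (mean ± SD, in this order for the genes that follow), and the ResKC samples all lay below the others. Klra2 stood at 73.4 ± 8.08 CPM, 101 ± 14.3 CPM and 85.1 ± 4.17 CPM, and Gmfg at 51.4 ± 7.96 CPM, 58.2 ± 6.18 CPM and 49.3 ± 5.96 CPM, so the populations overlapped for Gmfg. Wfdc17 stood at 1479 ± 280.3 CPM, 1435 ± 172 CPM and 716 ± 189 CPM, with the CLEC4F- macs below both types of Kupffer cells without overlap. Lst1 stood at 114 ± 22.05 CPM, 112 ± 3.89 CPM and 132 ± 17.6 CPM, Ndufa1 at 58.2 ± 4.61 CPM, 60.004 ± 4.61 CPM and 56.8 ± 4.95 CPM, and Gclc at 100.2 ± 11.99 CPM, 91.1 ± 8.71 CPM and 84.7 ± 9.29 CPM, and these 3 genes overlapped among the populations. Mrpl3 stood at 80.7 ± 6.87 CPM, 65.5 ± 8.79 CPM and 50.2 ± 7.24 CPM, and Cd40 at 33.6 ± 4.86 CPM, 51.6 ± 7.89 CPM and 45.5 ± 9.26 CPM, with the ResKC samples below every moKC sample for Cd40. Rps13 stood at 70.4 ± 6.697 CPM, 83.4 ± 5.77 CPM and 109 ± 14.7 CPM. Gm42856 stood at 0.9505 ± 0.334 CPM, 1.24 ± 0.485 CPM and 2.17 ± 0.512 CPM, and Serpina1e at 3.25 ± 3.93 CPM, 4.32 ± 6.39 CPM and 1.23 ± 1.11 CPM. Prrt1 stood at 1.29 ± 0.565 CPM, 1.795 ± 0.933 CPM and 4.43 ± 1.12 CPM, and AI467606 at 4.4003 ± 4.73 CPM, 8.66 ± 4.39 CPM and 22.7 ± 6.85 CPM, so both had their highest mean in CLEC4F- macs. The markers of monocytes and CLEC4F- macs summed to between 382 and 1058 CPM in the WD ResKC samples at 24 weeks, between 376 and 413 CPM in the SD samples of that time and between 1254 and 3282 CPM in CLEC4F- macs, and their part in the Prrt1 and AI467606 results was not tested.

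The other marker lists held no call in edgeR or DESeq2. Over 13 of 14 sinusoidal endothelial markers the interaction was below 0, with a median of -0.38, and their summed level ran from 656 to 1582 CPM in WD and from 1151 to 3059 CPM in SD samples at 24 weeks. Stellate cell and fibroblast markers had a median of -0.43 (11 of 14 below 0), neutrophil markers -0.42 (3 of 4 below 0) and B and plasma cell markers -0.14 (5 of 9 below 0). Markers of monocytes and CLEC4F- macs had a median of 0.61 (9 of 15 above 0), against -0.42 in the first naming form alone and between 0.10 and 0.82 without 1 sample, lowest without SD sample 7 at 12 weeks. Dendritic cell markers stood at 0.27 (5 of 8 above 0), T and NK cell markers at 1.34 (4 of 6) and cholangiocyte markers at 1.43 (3 of 3), and the summed levels of the last 2 lists were at most 11.9 and 30.3 CPM in the ResKC samples. The part of these cells in the interaction was not tested.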

How the data were processed

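The 35 samples of sorted liver macs, 24 of them ResKCs, were profiled by bulk RNA-seq. TruSeq libraries were sequenced as single reads on a NextSeq500. The authors deposited whole-number counts per gene for each sample (54735 genes), made per the labels and methods with FastQC 0.11.9, HISAT2 2.2.0, SAMtools 1.10 and featureCounts 2.0.0 on mm10. The annotation used for counting, the strand setting and the treatment of multi-mapping reads are not given in the sources used here. Samples were grouped by title. Genes over 1 CPM in at least 5 of 35 samples were kept, and edgeR 4.0.16 (R 4.3.3) was run with TMM scaling, 6 group means over all 35 samples, a quasi-likelihood test of the interaction contrast and Benjamini-Hochberg adjustment over 13421 genes. The 11 samples of the other populations share the filter, the TMM scaling and the estimate of the spread. CPM values are TMM-scaled, except for the single genes of the marker check in the opening, and their depth is given there. Positions and exon lengths (the union of all annotated exons of a gene) were taken from GENCODE M21 by symbol, which matched 54106 of 54735 genes, and promoters from RefSeq. The fit was tested on simulated data for this contrast with 13421 genes, where edgeR called 58% of 2-fold and 75% of 4-fold changes and 9 of 13221 unchanged genes.

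Named genes were all 38 called genes, the 3 genes of smallest p in each list of gene functions, and the genes the study names, beside the sort markers, and 1 gene of these is not reported here. Members and lists were chosen with earlier results of these data known, and the sets taken by symbol (respiratory chain, mitochondrial mRNA, ribosomal, proteasome) after the values were seen. Alternatives were DESeq2 1.42.0, limma-voom (limma 3.58.1), other scalings, filters and covariates, a replicate block and leaving out each sample. The 2 settings that remove the length trend were chosen after seeing the data. Figures were drawn with matplotlib 3.10.9 in Python 3.11.15.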

Additional observations from a re-analysis of the deposited data

Results flagged for a closer look

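The diet effect differed between 12 and 24 weeks by the interaction test itself (edgeR's quasi-likelihood test, adjusted p under 0.05) in 38 genes, with the difference given here on the log2 scale. Among the lower genes were Lair1 at -0.65, Wfdc17 at -1.15, Lst1 at -0.79, Ndufa1 at -0.65, Klra2 at -0.84, Gm42856 at -2.11, Gmfg at -0.73, Atp5h at -0.56, Psma6 at -0.54 and Tnfsfm13 at -1.46. Further lower genes were Med28 at -0.45, Romo1 at -0.58, Cox6b1 at -0.55, Ndufb4 at -0.70, Ndufa3 at -0.59, March1 at -0.51, Mrpl3 at -0.62, Serpina1e at -4.41, Usmg5 at -0.64 and Cops9 at -0.68. The lower genes also held Brk1 at -0.38, Cox7c at -0.60, Cd40 at -0.91, Mtfp1 at -1.20, Rps13 at -0.53, Itga2b at -4.45, Atp5j2 at -0.58, Cox6c at -0.52 and Itgb1bp1 at -0.60. The higher genes were Gclc at 0.64, Slc25a22 at 0.74, Safb at 0.72, Golim4 at 0.56, Arid4a at 0.57, Cdk16 at 0.60, Prrt1 at 2.76, AI467606 at 3.85 and Ppp1r13b at 0.55.

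Samples far from the rest of their group by Dixon's criterion were found in 8 of 184 groups looked at over 46 genes, where chance gives about 1 in 20. Among WD samples at 12 weeks, Ndufa1 stood at 89.1 CPM in sample 5 against 65.2 to 70.9 CPM in the others, and Mtfp1 at 8.01 CPM in sample 3 against 4.06 to 4.86 CPM. Among WD samples at 24 weeks, sample 5 stood apart for Romo1 at 51.7 CPM against 37.7 to 41.2 CPM and for Golim4 at 40.5 CPM against 53.3 to 58.3 CPM. Cdk16 stood at 60.2 CPM in SD sample 6 at 12 weeks against 69.4 to 76.5 CPM, and at 46.6 CPM in SD sample 4 at 24 weeks against 57.6 to 65.4 CPM. Tnfsfm13 stood at 2.51 CPM in SD sample 1 at 12 weeks against 1.41 to 1.81 CPM, and Plin2 at 446 CPM in SD sample 7 at 12 weeks against 307 to 351 CPM.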

How the results depend on the processing

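Against 38 called genes (9 higher, 29 lower), DESeq2 called 192 (84 and 108), library size alone 33 (21 and 12), no filter on low counts 11 (2 and 9), the 24 ResKC samples alone 24 (8 and 16), RLE size factors 44 (14 and 30), filterByExpr 42 (14 and 28), a hepatocyte marker covariate 70 (18 and 52), an immediate-early and heat shock covariate 60 (18 and 42) and a naming form covariate 87 (15 and 72). The first naming form alone gave 0 (0 and 0; 1662 genes at unadjusted p under 0.05), also with the length trend removed (1401 genes). A log2 limit of 1 left 8 (2 and 6), an adjusted p of 0.01 with a limit of 1.5 left 1 (0 and 1), and an adjusted p of 0.1 gave 176 (60 and 116). limma-voom gave 37, robust dispersion 40 and removal of the length trend 32. Only 23 of the 38 genes were among the 87 called with the naming form covariate. DESeq2 called 32 of the 38 and gave no adjusted p for the others, Gm42856, Tnfsfm13, Prrt1, Mtfp1, Itga2b and AI467606. The 24 ResKC samples alone gave 18 of the 38. Without 1 sample the counts ran from 8 to 98, the higher from 1 to 25 and the lower from 7 to 73, with the samples named in the results. The cause was not tested.

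Same-numbered SD and WD samples did not deviate together (correlations from -0.357 to 0.024 over 5 pairs at 12 weeks and from -0.023 to 0.130 over 6 pairs at 24 weeks, and 1 of 11 samples correlated best with its own number). These correlations cannot show whether a number stands for a shared day or batch, and same-numbered samples of different populations were not compared. The fit with a replicate block called 5 genes (2 and 3), all among the 38: Lair1, Gclc, Klra2, Gm42856 and Arid4a.

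The median was 0.17 for the lipid uptake and for the glycolysis genes without SD sample 7 at 12 weeks and 0.17 for the fusion genes without SD sample 2 at 12 weeks, and medians nearer 0, such as that of the LXR target genes, also moved by over 1.5 times without single samples. No called gene changed direction, and in the settings other than leaving out a sample 211 of 570 values no longer passed. These include the genes without an adjusted p in DESeq2. Among genes that did not pass, Abca1 turned positive with DESeq2 (0.0063), RLE (0.0064), filterByExpr (0.013), no filter (0.0089), ResKC samples alone (0.018), library size (0.073), limma-voom (0.13), the block (0.092), the hepatocyte (8.5e-05), immediate-early (0.0019) and naming (0.043) covariates and the first naming form without (0.18) and with length removal (0.11). In the first naming form without and with length removal, Asns was -0.85 and -0.78, Trem2 -0.068 and -0.12, and Fasn -0.028 in the latter. Il1b was 0.0014 with the naming covariate and Tnf -0.22 in limma-voom. Without 1 sample, Abca1 ran from -0.13 to 0.27 and Tnf from -0.28 to 0.50. Scaled by library size, Lair1, Ndufa1 and Klra2 stood at 349, 61.8 and 92.8 CPM in CLEC4F- macs. Genes under about 0.2 CPM cannot be told from 0 at this depth.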
